A study of Homo sapiens with 3 samples.

Results

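Metallothioneins are small cysteine-rich proteins that hold zinc, copper and cadmium in clusters of metal and sulphur. Their genes are switched on by zinc and cadmium through the metal-responsive transcription factor MTF1, which binds metal response elements in their promoters, and they are also known to respond to glucocorticoids, oxidants and, in some cells, low oxygen. The isoforms act as a buffer for cellular zinc and take up reactive oxygen species, and their level in osteosarcoma has been studied for its relation to drug resistance. In humans the functional genes lie side by side on chromosome 16.

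The family was examined in MNNG/HOS cells, a human osteosarcoma line obtained from HOS cells by treatment with a chemical carcinogen, grown as floating spheres (sarcospheres) in serum-free DMEM/F12 medium. The members are 10 listed genes, MT1A, MT1B, MT1E, MT1F, MT1G, MT1H, MT1M, MT1X, MT2A and MT3, looked up by name among the 14836 named genes of the deposited table. Of these, 9 were measured, each by 1 feature, and no feature was named MT1B. MT1A was named through its RefSeq accession and the other 8 through the array's platform annotation. There were 3 cultures: spheres with no treatment, spheres given 4 ng/mL of TGF-beta1, and spheres in a hypoxic atmosphere whose oxygen content the sources used here do not give. All were collected after 5 days, and total RNA of each was hybridised to 1 NimbleGen one-colour (Cy3) array.

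With 1 array per group there is no replicate error, and no test across samples was possible. The members were chosen by family name, and the family itself was selected on its log2 differences between these same arrays, which were already known. The differences are therefore a description of 3 arrays. The number of arrays limits the precision. The values are the authors' intensities in arbitrary units on a linear scale, with medians over all features of 383, 363 and 395 on the untreated, TGF-beta1 and hypoxia arrays and a lowest value of 50 on each. A log2 difference of 2 arrays is used throughout. A gene is called above the floor where the brighter of the 2 arrays is at or above the median gene value of that array (410, 402 and 427). Of the fixed markers of mesenchymal or osteosarcoma cells, 7 of 8 measured were above the floor in the comparison of TGF-beta1 with untreated, with VIM (vimentin) at 29664, 34423 and 30847 on the untreated, TGF-beta1 and hypoxia arrays. THY1, the other one, stood at 77.5, 70.0 and 56.1. Among these markers S100A4 (-1.11) and FN1 (0.84) differed most from untreated with TGF-beta1, and S100A4 (0.85) and COL1A1 (-0.84) under hypoxia. Above the floor there were 0 of 3 blood and immune markers, 0 of 1 each for endothelium, hepatocytes and epithelium, and 1 of 2 neuronal markers, the synaptic vesicle gene SYP at 998.6, 623.3 and 701.7. The part of SYP-expressing cells in the results was not tested. In bulk RNA, fewer cells of a type and less RNA per cell cannot be told apart.

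The metallothionein genes were lower in the TGF-beta1 spheres than in the untreated spheres, and to a smaller degree lower in the hypoxic spheres. All 9 measured members were dimmer on the TGF-beta1 array than on the untreated array, with a median log2 difference of -0.99 against -0.003 over all named genes. For MT1A (-0.02) the direction turned to 0.06 when each array was centred on its median, and MT3 was below the floor. Under hypoxia 8 of 9 were dimmer than untreated, with a median of -0.40 against 0.036. Both comparisons use the same untreated array. Most of the MT1 genes followed the order untreated, hypoxia, TGF-beta1 from brightest to dimmest, whereas MT1A and MT2A differed little after TGF-beta1 and MT3 was brightest under hypoxia. The metallothionein mRNAs are near-identical copies of each other in part, so a feature may take signal from other members, and the probe sequences were not used here.

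**Figure D1:**
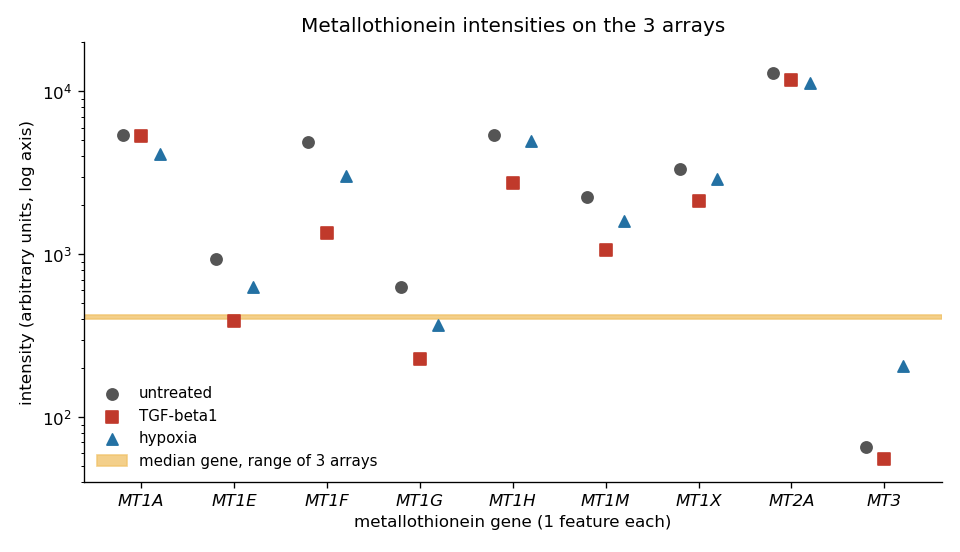
Intensity (log axis) of the 9 measured metallothionein genes on the untreated, TGF-beta1 and hypoxia arrays, 1 point per array, with the range of the median gene value of the 3 arrays as a band. In MT1E, MT1F, MT1G, MT1H, MT1M and MT1X the untreated point is highest and the TGF-beta1 point lowest, as for MT1F at 4900, 3045 under hypoxia and 1351 with TGF-beta1.

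MT1F, one of the MT1 isoforms, showed the largest decrease of the family after TGF-beta1. It stood at 4900 on the untreated array, 1351 on the TGF-beta1 array and 3045 on the hypoxia array. The TGF-beta1 value was 27.6% of the untreated one (log2 difference -1.86) and the hypoxia value 62.1% of it (-0.69). Among the 7950 genes that passed the floor against untreated, 56 (0.704%, MT1F included) were at least as far down.

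MT1G and MT1E, isoforms that zinc and cadmium strongly induce in other human cells, showed the same order of the arrays. MT1G stood at 627.3, 227.9 and 368.0 on the untreated, TGF-beta1 and hypoxia arrays, a log2 difference from untreated of -1.46 with TGF-beta1 and -0.77 under hypoxia. MT1E stood at 930.0, 390.6 and 630.4, with differences of -1.25 and -0.56. Both genes were thus below the median gene value on the TGF-beta1 array and above it on the untreated array. MT1G was below it on the hypoxia array too.

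MT1M, MT1H and MT1X were above the median gene value on every array and also lowest with TGF-beta1. MT1M stood at 2261, 1069 and 1609 on the untreated, TGF-beta1 and hypoxia arrays, with log2 differences from untreated of -1.08 and -0.49. MT1H stood at 5397, 2727 and 4942, with differences of -0.99 and -0.13, so the hypoxia array was close to the untreated one and the TGF-beta1 array was at 50.5% of it. MT1X, one of the more broadly expressed isoforms, stood at 3352, 2139 and 2921, with differences of -0.65 and -0.20.

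MT2A and MT1A did not follow the order of the other MT1 genes, though for MT2A the TGF-beta1 and hypoxia arrays differed by only 1.04-fold. MT2A, the most abundant metallothionein in many human tissues, stood at 13033 on the untreated array, 11782 on the TGF-beta1 array and 11337 on the hypoxia array, with log2 differences from untreated of -0.15 and -0.20. MT1A stood at 5430, 5359 and 4124, with differences of -0.02 and -0.40. For both genes the hypoxia array was the dimmest of the 3, and the TGF-beta1 array was within 1.5-fold of the untreated one. The highest values of any feature were 48609, 45549 and 52830 on the untreated, TGF-beta1 and hypoxia arrays, above those of MT2A. Whether bright features understate differences was not tested.

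MT3, known as growth inhibitory factor and expressed mainly in the brain, was near the lowest value of the table on the untreated array (65.3) and the TGF-beta1 array (55.2) and stood at 207.3 on the hypoxia array. Its log2 difference under hypoxia was 1.67, the only positive one of the family against untreated. All 3 values lie below the median gene value, and no detection calls were given. It is thus unknown if the dim values exceed background, and the size of the difference is not settled. With 50 added to each value before the logarithm it was 1.16. MT4, the isoform of stratified epithelium and no member of the list, stood at 121.4, 81.0 and 110.9, below the floor in each comparison.

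**Figure D2:**
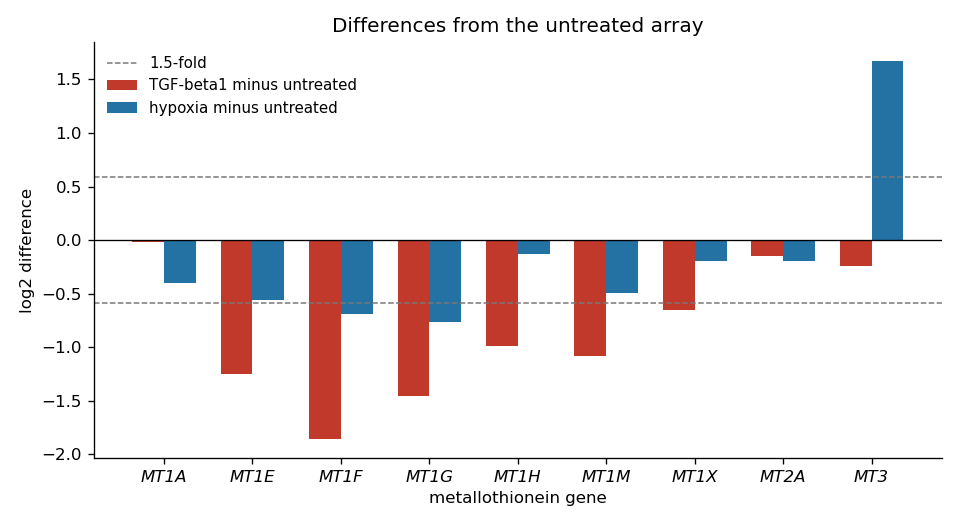
Log2 difference from the untreated array for each measured metallothionein gene with TGF-beta1 and under hypoxia, 1 array per condition, with the 1.5-fold threshold dashed. The bars with TGF-beta1 reach from -1.86 in MT1F to -0.02 in MT1A, and the hypoxia bar of MT3 (1.67) is the only one above 0.

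Promoters of 4 of the 10 members were found in the RefSeq promoter table of build GRCh38.p14, with 250 bases before and 50 after each gene's start. Those of MT2A, which differed little, and of MT1H and MT1X, which were lower with TGF-beta1, are shown because they belong to measured members of both kinds. All lie on chromosome 16 on the plus strand, MT2A at chr16:56608334-56608633, MT1H at chr16:56669564-56669863 and MT1X at chr16:56682220-56682519. Capitals mark matches on either strand to the core of the metal response element, written TGCACNC or TGCGCNC.
MT2A: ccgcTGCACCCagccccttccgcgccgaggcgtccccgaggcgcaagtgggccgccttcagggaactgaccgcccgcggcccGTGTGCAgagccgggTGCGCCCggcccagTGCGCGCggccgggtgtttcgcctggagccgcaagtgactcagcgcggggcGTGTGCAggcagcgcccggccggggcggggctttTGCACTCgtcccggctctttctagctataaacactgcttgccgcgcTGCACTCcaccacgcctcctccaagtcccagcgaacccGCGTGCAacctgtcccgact
MT1H: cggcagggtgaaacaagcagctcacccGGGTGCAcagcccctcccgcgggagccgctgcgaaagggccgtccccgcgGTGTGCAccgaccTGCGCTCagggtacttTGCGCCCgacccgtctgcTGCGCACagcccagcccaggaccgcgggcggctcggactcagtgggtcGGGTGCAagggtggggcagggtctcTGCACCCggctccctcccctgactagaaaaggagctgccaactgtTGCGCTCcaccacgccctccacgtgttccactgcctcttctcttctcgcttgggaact
MT1X: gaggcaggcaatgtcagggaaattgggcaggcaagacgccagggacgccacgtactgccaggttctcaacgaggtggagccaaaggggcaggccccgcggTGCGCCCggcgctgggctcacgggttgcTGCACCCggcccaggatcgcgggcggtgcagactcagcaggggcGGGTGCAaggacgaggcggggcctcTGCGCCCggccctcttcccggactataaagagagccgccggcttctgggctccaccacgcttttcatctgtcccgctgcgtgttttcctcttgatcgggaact
The MT2A and MT1H windows each held 8 such matches and the MT1X window 4. Among all 35116 promoters of the same length, 29.6% held at least 1 match, 0.601% held at least 4 and 7 promoters held at least 8. The hypoxia response core, written ACGTG or GCGTG, had 3 matches in each of the 3 windows, and at least 3 in 10.1% of all promoters. In MT2A 2 of these 3 overlapped a metal response core, and in MT1H and MT1X 0 did. Matches on opposite strands were counted separately, so the palindrome cacgtg in the MT1H window gave 2 of its 3 hypoxia core matches. The exact strings GTCTAGAC and AGCCAGACA, used for SMAD elements, had 0 matches in the 3 windows, and at least 1 in 0.49% of all promoters. Strings this rare would be absent from most windows, and shorter SMAD sites were not counted. The 0 matches thus do not show that the windows lack SMAD sites. The antioxidant element TGACNNNGC had 1 match in MT2A, 1 in MT1X and 0 in MT1H, against at least 1 in 13.3% of all promoters.

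In the comparison of TGF-beta1 with untreated spheres, 8 of the 9 measured members were above the floor. Of these, 6 were at least 1.5-fold lower (MT1E, MT1F, MT1G, MT1H, MT1M and MT1X), 0 were higher, and MT1A and MT2A were within 1.5-fold. Of all 7950 such genes 11.5% were 1.5-fold lower and 12.6% higher. MT1E and MT1G passed the floor only through the untreated array, where they were brighter. The same rule applied to all genes. At least 2-fold lower were MT1E, MT1F, MT1G and MT1M, against 3.86% of all genes, and MT1H lay just short of it at 1.98-fold. The balance of calls over all genes depended on the scaling: 52.3% of the 1.5-fold calls were in the higher direction as deposited and 63.2% after centring each array on its median. With that centring 5 members were at least 1.5-fold lower, since MT1X came to -0.57.

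A gauge of feature noise came from genes with several features, because each member has 1. In the same comparison the first and second feature of 699 genes above the floor differed from each other by a median of 0.24 in their log2 difference, and by more than 0.86 in 5% of genes. MT1E, MT1F, MT1G, MT1H and MT1M, 5 of 8 members above the floor, differed between the arrays by more than that, and MT1X, MT2A and MT1A by less. This gauge leaves out the variation between cultures. The 5% refers to gaps between features, and the share of all genes past 0.86 was not computed. At least as far down as MT1H, the least of these members at -0.99, were 4.03% of the 7950 genes above the floor.

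Under hypoxia, MT1F and MT1G (2 of 8 members above the floor) were lower than untreated by 1.5-fold or more, and 0 were higher. Of all 7820 genes that passed the floor 5.69% were lower and 8.64% higher to this degree. MT1G passed the floor only through the untreated array. At 2-fold 0.985% of genes and 0 members were lower. MT1E lay just inside 1.5-fold at 1.48-fold and was past it (-0.61) when each array was centred on its median. That centring moved the share of all 1.5-fold calls in the higher direction from 60.3% to 49.7%. Between the features of 1 gene, the gap in this comparison had a median of 0.31 and exceeded 0.97 in 5% of 689 genes. MT1G, MT1F, MT1E, MT1M and MT1A differed from untreated by more than that median, and 0 of 8 members by more than 0.97. Of the 7820 genes above the floor, 12.7% were at least as far down as MT1A, the least of these members. A gap carries the noise of both features, and the SD of a single feature was 0.337.

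The TGF-beta1 and hypoxia arrays were also set against each other. MT1E, MT1F, MT1H and MT1M, 4 of 7 members above the floor, were lower with TGF-beta1 by 1.5-fold or more, against 15.3% of all 7941 genes above the floor, and 0 were higher, against 13.2%. At 2-fold only MT1F was lower, against 5.73% of all genes. MT1E passed the floor only through the hypoxia array. MT1F differed by -1.17, MT1H by -0.86, MT1E by -0.69, MT1M by -0.59 and MT1X by -0.45. MT2A (0.06) and MT1A (0.38) were slightly brighter with TGF-beta1. MT1G (-0.69) and MT3 (-1.91) were below the floor in this comparison. The features of 1 gene differed by more than 1.07 in 5% of 700 genes, and MT1F alone of the 7 exceeded that. Of the 7941 genes, 3.65% were at least as far down as MT1F. With each array centred on its median, 2 members were at least 1.5-fold lower, and the share of all calls in the higher direction was 62.9% in place of 46.3%.

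The metallothionein genes lie in a row on chromosome 16, and the measured genes next to them on either side were mostly within 1.5-fold of untreated. In order the protein-coding genes are MT4, MT3, MT2A, MT1E, MT1M, MT1A, MT1B, MT1F, MT1G, MT1H and MT1X. The genes with the least difference after TGF-beta1, MT2A and MT1A, do not lie next to each other: MT1E and MT1M, at -1.25 and -1.08, lie between them. The nearest 3 measured protein-coding genes on each side had log2 differences from -0.74 to 0.16 with TGF-beta1 and from -0.26 to 0.36 under hypoxia. Among these 6 genes 4 passed the floor, and 1 of the 4 was lower with TGF-beta1 by 1.5-fold or more: HERPUD1, an ER stress gene, at 2545 against 4242. Of all genes above the floor 11.5% were lower to this degree. Under hypoxia 0 of 4 passed 1.5-fold, against 8.64% of all genes higher and 5.69% lower. Counts over 4 genes are too small to set these neighbours apart from such shares. The gene next to MT1X, the nucleoporin gene NUP93, stood at 5884 against 5490, and the one before MT4, the Bardet-Biedl gene BBS2, at 678.0 against 721.0.

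**Figure D3:**
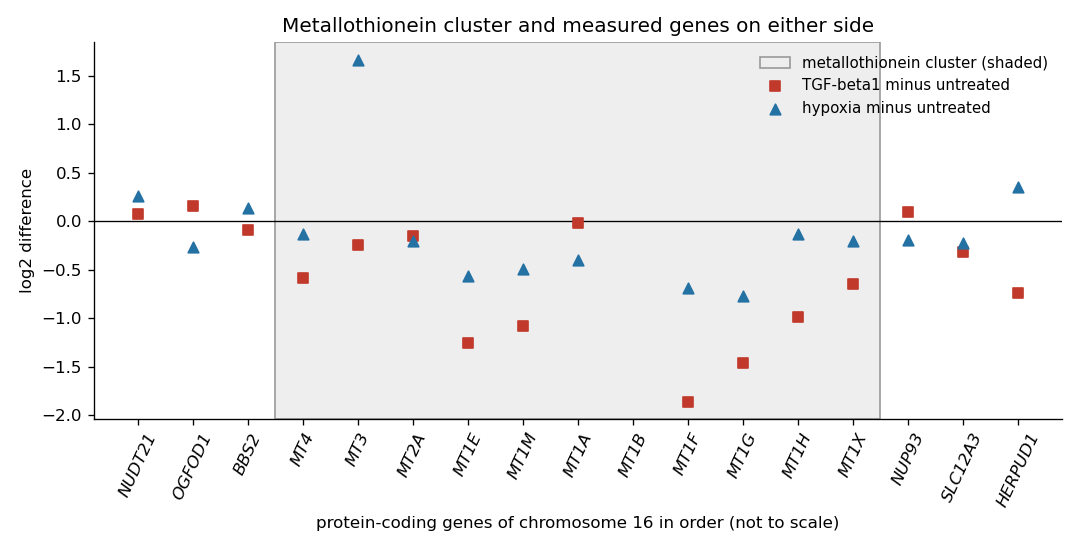
Log2 difference from the untreated array with TGF-beta1 (squares) and under hypoxia (triangles) for the protein-coding genes of the metallothionein cluster (shaded) and the 3 measured protein-coding genes on each side, in chromosome order and not to scale, with no point for MT1B. The TGF-beta1 squares of MT1E, MT1M, MT1F, MT1G and MT1H lie at -0.99 or lower, and those of the genes on either side between -0.74 and 0.16.

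MTF1, the regulators listed with it and genes that move zinc were read on the same arrays. The shares over all genes were 12.6% higher and 11.5% lower with TGF-beta1, and 8.64% and 5.69% under hypoxia. MTF1, the zinc sensor that drives metallothionein transcription, stood at 1493, 1378 and 1574 on the untreated, TGF-beta1 and hypoxia arrays, log2 differences of -0.12 and 0.08. In the list named MTF1 and zinc sensing, 0 of 4 genes above the floor were 1.5-fold higher or lower in either comparison with untreated. Its largest differences with TGF-beta1 were MTF2, a Polycomb accessory protein, at 0.37 and the transcription factor gene USF2 at -0.24. Under hypoxia they were SP1, a general activator, at 0.44 and MTF2 at -0.16.

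Zinc exporters of the SLC30 family had a median log2 difference of -0.11 with TGF-beta1 and -0.23 under hypoxia. Of 4 above the floor, 0 passed 1.5-fold with TGF-beta1, where SLC30A6 was at -0.34 and SLC30A9 at -0.30, and 1 was lower under hypoxia, the secretory-pathway exporter SLC30A5, at 295.8 against 476.3. SLC30A9 was at -0.34 under hypoxia. SLC30A1, the plasma membrane exporter that MTF1 also induces, stood at 142.8, 138.6 and 245.0 on the untreated, TGF-beta1 and hypoxia arrays, below the floor. Zinc importers of the SLC39 family had medians of 0.22 and 0.13. With TGF-beta1 1 of 9 above the floor was lower, the Golgi importer SLC39A9 (653.5 against 1109), and 0 were higher, with SLC39A3 at 0.55. Under hypoxia 0 of 8 passed 1.5-fold, and SLC39A13, at 0.43, and SLC39A10, at -0.36, differed most.

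Genes of copper handling had a median of 0.06 with TGF-beta1 and 0.27 under hypoxia. This list includes MT4, itself a metallothionein, below the floor at -0.58 and -0.13. Of all genes above the floor 12.6% were higher and 11.5% lower with TGF-beta1, and 8.64% and 5.69% under hypoxia. With TGF-beta1 1 of 10 above the floor was 1.5-fold higher, the mitochondrial copper chaperone gene COX17 (538.3 against 332.8), and 0 were lower, with the copper importer SLC31A1 at 0.54. Under hypoxia SLC31A1 was higher (575.8 against 282.3) and SCO1, which delivers copper to cytochrome c oxidase, was lower (1606 against 2570), and the other 8 were within 1.5-fold.

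Other inputs that are known to act on metallothionein genes were read from oxidative stress and glucocorticoid lists. The shares over all genes above the floor were again 12.6% higher and 11.5% lower with TGF-beta1, and 8.64% and 5.69% under hypoxia. The NRF2 and oxidative stress list had a median of -0.06 with TGF-beta1, with SRXN1 (sulfiredoxin) and TXN (thioredoxin) the 2 higher genes of 10 above the floor, at 0.98 and 0.71. Under hypoxia its median was 0.39, 3 of 10 were higher and 0 lower, and HMOX1, the heme oxygenase gene that cadmium and oxidants also induce, stood at 1284 against 527.6. The cystine transporter gene SLC7A11 was at 0.66 and TXNRD1 (thioredoxin reductase) at 0.64. Glucocorticoid-induced genes had a median of 0.08 with TGF-beta1, with 2 of 8 above the floor higher, FKBP5 (0.68) and SGK1 (0.71), and DUSP1 lower at -0.82. Under hypoxia 5 of 8 were higher, and 4 with each array centred on its median. The C/EBP gene CEBPD was at 0.99 and SGK1, a serum- and glucocorticoid-regulated kinase, at 0.84. NR3C1, the glucocorticoid receptor itself, was lower at -0.60.

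**Figure D4:**
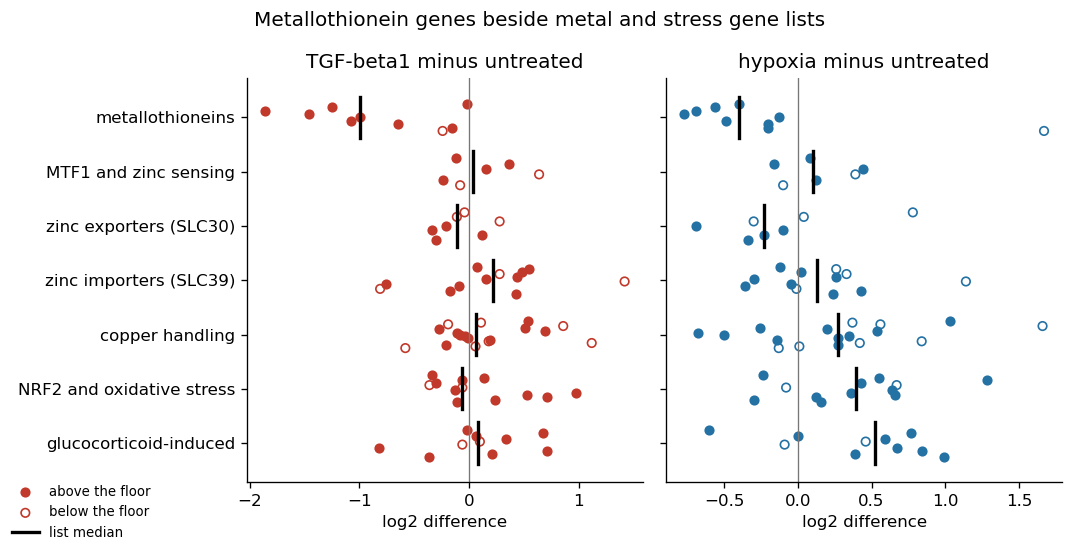
Log2 difference from the untreated array for each measured gene of the metallothionein family and of 6 metal and stress lists, with filled points above the floor, open points below it and a bar at each list's median. The metallothionein medians are -0.99 with TGF-beta1 and -0.40 under hypoxia, and the medians of the other lists run from -0.11 to 0.22 and from -0.23 to 0.52. The copper handling list includes the metallothionein gene MT4.

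As a check on the treatments, genes known to respond to each were read on the same arrays. In a list of 12 TGF-beta/SMAD targets 5 of 11 above the floor were 1.5-fold higher with TGF-beta1 and 1, TGIF1 (-0.62), was lower (0 with each array centred on its median), against 12.6% and 11.5% of all genes. IL11 (478.0 against 229.3) and CCN2 (1215 against 592.1) differed most. Under hypoxia 5 of 11 were higher, against 8.64% of all genes, and 3 with each array centred on its median, and CCN2 was at 1.80 and IL11 at 1.03. Of the HIF targets, 2 of 10 above the floor were higher under hypoxia, ANGPTL4 (2.04) and ADM (1.19), against 8.64% of all genes. The other 8 were within 1.5-fold. Of the 11 measured, 8 were brighter than untreated and 3 dimmer: PDK1 (-0.51), P4HA1 (-0.28) and BNIP3 (-0.14). With TGF-beta1 2 of 9 HIF targets were higher and 1 lower, and LDHA was at 0.68 and EGLN3 at -0.82.

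The genes most like the family in pattern were looked up on the 3 arrays. The 6 members above the median gene value on all 3 arrays (MT1A, MT1F, MT1H, MT1M, MT1X and MT2A) had mean log2 differences from untreated of -0.79 with TGF-beta1 and -0.35 under hypoxia. MT1E and MT1G are not in this mean because their TGF-beta1 values lie below that median, so it understates the family's decrease. Likeness was measured as the Euclidean distance between log2 values centred on each gene's mean over the 3 arrays. The nearest non-members were the homeobox gene HOXA7 (distance 0.019), the corepressor gene BCOR (0.029), PCOLCE, an enhancer of procollagen processing (0.039), GABARAPL1, an autophagy gene (0.042), and the glucose transporter gene SLC2A8 (0.042). HOXA7 stood at 1059, 619.7 and 825.0 on the untreated, TGF-beta1 and hypoxia arrays. The members themselves lay at a mean distance of 0.42 from their own mean, from 0.12 for MT1X to 0.774 for MT1F. Within that mean distance lay 1096 of the 6691 non-members above the median gene value on all 3 arrays (16.4%). At this distance, set by the members' own spread, the mean pattern of the 6 was thus not particular to the family. The count does not cover the larger decreases of single members, such as MT1F at -1.86 with TGF-beta1.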

How the data were processed

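Total RNA of 3 sphere cultures was measured on NimbleGen one-colour arrays, per the labels' protocols. Intensity values of 38572 features, on a linear scale, were deposited by the authors. The sources used here do not state the background correction, probe summary, normalization or filter behind them. Features were named by the platform annotation with symbols updated through the Entrez identifier (15623) or by unversioned RefSeq accession (593, GRCh38.p14), and 22356 stayed unnamed. The log2 of each value, without a pseudocount, was averaged over a gene's features. Lowess centring used a fraction of 0.3. The alternatives were 3 scalings, 2 summaries of features, a pseudocount of 50, platform symbols alone, no filter on dim genes and a 2-fold threshold. The scripts were tested on simulated data. Python 3.11.15, pandas 2.3.3 and statsmodels 0.14.6 were used.

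The members and lists were chosen with earlier results of these data known. All members were named, with the 2 largest differences above the floor per list and comparison with untreated, and the 5 genes nearest in pattern. MTF1, SLC30A1, MT4, TXNRD1, FKBP5, NR3C1, TGIF1, PDK1, P4HA1, BNIP3, VIM, THY1 and the chromosome neighbours were named after their values were seen. No p-value was computed, with 1 array per group.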

Additional observations from a re-analysis of the deposited data

How the results depend on the processing

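No family median and no 1.5-fold difference of a member changed direction under the 7 alternatives to scaling, feature summary, pseudocount and naming. Each member has 1 feature, so the 2 summaries of features could not change a member's value. Platform symbols alone only removed MT1A and left the values of the other members as they were. The scalings and the pseudocount were thus the only alternatives able to move a member's difference. The median log2 difference of the metallothionein genes ran from -1.03 to -0.91 with TGF-beta1 and from -0.44 to -0.35 under hypoxia, both against untreated, and from -0.69 to -0.56 between TGF-beta1 and hypoxia. The sign of MT1A with TGF-beta1, within 1.5-fold throughout, was not stable, with a range of -0.04 to 0.06. Without the filter on dim genes, 1 member (MT3) was at least 1.5-fold higher under hypoxia. At a 2-fold threshold 0 members were lower under hypoxia in place of 2, and 1 was lower for TGF-beta1 minus hypoxia in place of 4. Centring each array on its median left 2 lower in that comparison. For MT3, a pseudocount of 50 gave 1.16 for hypoxia against untreated and -1.29 for TGF-beta1 against hypoxia. Of 216 counts of the other lists under an alternative, 17 moved by over 1.5 times. The causes were not tested. No paired analysis was possible because each group has 1 array. Signal over background is unknown, as the table has no detection calls.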
